A study of Homo sapiens with 12 samples.

Results

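Line 2 is 1 of 2 HKDC1-edited lines made from PLC/PRF/5, hepatoma cells of human origin and epithelial character. It gave 4 of the 12 libraries of the series. Its members were chosen by sample title: 2 libraries of the line-2 knockout (KO2, numbered 1 and 2) and 2 of the line-2 knockout with HKDC1 put back (KO2_RES, numbered 1 and 2). They were compared with 4 control libraries labelled WT (controls 1 to 4), and the other line (KO1 and KO1_RES, 2 libraries each) was used only to show where line 2 differed from it. KO2_RES carries the knockout as well as the rescue, so KO2 and KO2_RES share the edit and the descent of the line, and control has neither. The sources used here do not say whether line 2 grew from 1 cell, which edit or vector was used, whether each library is its own culture, or which oxygen level the cells were kept at, although the series title names hypoxia. The spread behind every p-value is therefore that between libraries, which may be technical. The genotype field calls KO2 number 2 a rescue and KO2_RES number 1 a knockout, against their titles. The mean level of the 4 line 2 libraries does not depend on which of these is right. The fitted fold change of line 2 over control, its SE and its p-value can depend on it. The titles were used, and HKDC1 mRNA followed them, at 49.2 CPM in KO2 number 2 and 508 CPM in KO2_RES number 1. Genes called in KO2 and in KO2_RES alike do depend on the grouping, and 1397 of the 1494 such genes were also called alike when grouped by the genotype field.

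HKDC1 is a member of the hexokinase family, the enzymes that add a phosphate to glucose and so keep it in the cell. Hepatoma cells descend from hepatocytes, which make most plasma proteins, among them apolipoproteins, clotting factors and complement, and fold them with chaperones in the endoplasmic reticulum before secretion. As epithelial cells they are held together by desmosomes, junctions whose cadherins (desmocollins and desmogleins) bridge neighbouring cells. Many tumours also transcribe cancer-testis genes, a group normally restricted to germ cells that lies largely on the X chromosome.

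Of 20559 genes tested, 1494 differed from control in the same direction in KO2 and in KO2_RES, which is 7.27% of all tested. Of these, 655 (3.19% of all tested) were higher and 839 (4.08%) lower in line 2, and the fitted change of the line 2 mean was at least 2-fold for 399 genes that were higher and 376 that were lower. These genes are called shared here. In bulk RNA, fewer cells of a kind and less RNA per cell cannot be told apart. A gene counted when an edgeR quasi-likelihood test with Benjamini-Hochberg adjustment gave an adjusted p under 0.05 in each comparison. KO2 against control had 2062 calls (10%), 985 higher (4.79%) and 1077 lower (5.24%). KO2_RES against control had 1977 (9.62%), 876 higher (4.26%) and 1101 lower (5.36%). These comparisons use the same 4 controls. All 4 line 2 libraries lay above or below all 4 controls for 1493 of the 1494 shared genes, whereas 22.7% of all tested genes did so. The shared genes were chosen by calls against these same controls, so this separation follows in large part from that choice. The median log2 fold change of line 2 over control was 0.00 over all tested genes. The count of shared genes was 491 without KO2 number 1, 598 without KO2 number 2 and 761 without KO2_RES number 2, and it lay between 1077 and 1526 without any other library.

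**Figure D1:**
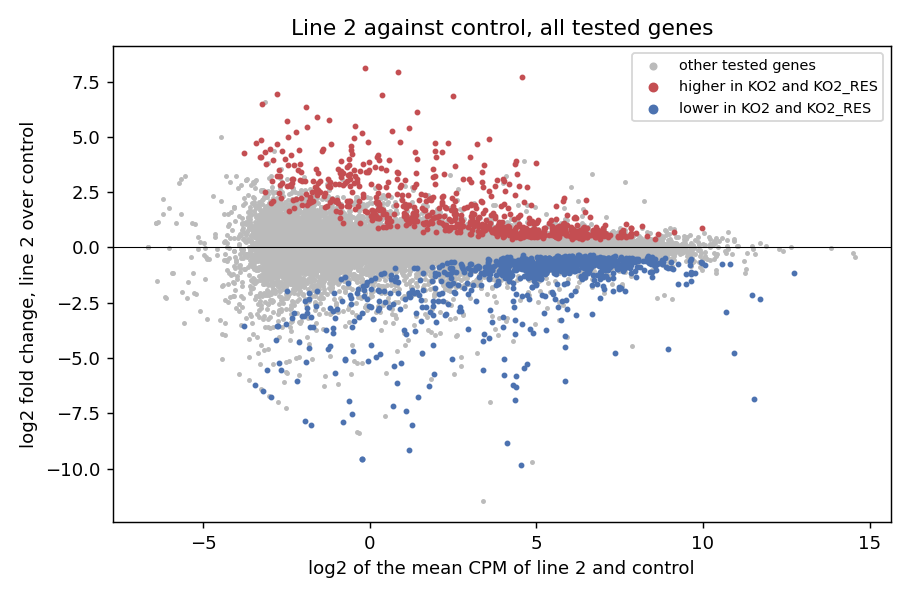
Each point is a tested gene; the x axis is the log2 of its mean level in line 2 and control in CPM (counts scaled to a library total of 1000000, with 0.01 added) and the y axis its log2 fold change of line 2 over control. The 655 genes higher in KO2 and KO2_RES are red, the 839 lower are blue and all others grey; coloured genes spread widely over levels, and those with the smallest changes sit at high levels.

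Counts on genes came to between 52511563 and 68040103 in line 2 and between 57333288 and 71853616 in control. Controls 1 and 2 stood apart from controls 3 and 4, with the liver protein albumin (ALB) at 15.8 and 20.7 CPM in KO2 and 20.8 and 25.03 CPM in KO2_RES, against 907, 823, 23.1 and 28.2 CPM in controls 1 to 4. Each gene was therefore also tested against each pair. For the mean of line 2, 1403 of the 1494 shared genes were called with the same sign against controls 1 and 2 alone and against controls 3 and 4 alone (584 higher and 819 lower, 6.82% of all tested). With KO2 and KO2_RES each required to pass, 1338 of the 1494 remained shared against controls 1 and 2 alone and 986 against controls 3 and 4 alone. The labelled cell type was checked with 9 hepatoma markers, all detected, which summed to 3179 to 4588 CPM in line 2 and 11529 to 19482 CPM in control. Most of the line 2 sum was the keratins KRT8 (1145 to 1937 CPM) and KRT18 (1114 to 1720 CPM). The liver proteins of the list ranged in line 2 from TTR (0.455 to 1.03 CPM) to SERPINA1 (610 to 709 CPM). Endothelial markers summed to 0.478 to 1.23 CPM in line 2 and 0.745 to 2.35 CPM in control. Fibroblast markers summed to 9.85 to 13.4 CPM in line 2 and 7.12 to 12.1 CPM in control, and blood cell markers, nearly all of it LYZ, to 267 to 400.2 CPM in line 2 and 335 to 923 CPM in control. Markers at 3 counts or fewer in every one of these libraries included COL1A2, CD3E, MS4A1, HBB and KDR.

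HKDC1 itself was the only gene that passed in KO2 and in KO2_RES with opposite signs. Its mRNA stood at 91.4 and 49.2 CPM in KO2 and 508 and 622 CPM in KO2_RES, against 157, 154, 183 and 124 CPM in controls 1 to 4. KO2 lay below and KO2_RES above every control, with log2 fold changes of -1.14 (adjusted p = 0.0161) and 1.87 (adjusted p = 0.000796). It was also the only gene called for KO2_RES against KO2 (log2 difference 3.01, SE 0.29, adjusted p = 0.0159), 0.00486% of all tested, while 298 genes had an unadjusted p under 0.05. The call was lost without either KO1 library, without either KO2_RES library, without KO2 number 2 and in a fit of KO2_RES and KO2 alone, while the log2 difference of HKDC1 stayed between 2.63 and 3.50. DESeq2 called HKDC1 and FLVCR2 there. For the 1494 shared genes the median absolute log2 difference was 0.13 between KO2_RES and KO2 and 1.04 between line 2 and control. These genes were chosen for calls of the same sign in KO2 and KO2_RES, so both medians are in part set by that choice. HK2, the hexokinase that tumour cells commonly raise, was at 27.2 and 40.5 CPM in KO2 and 18.6 and 23.8 CPM in KO2_RES, against 11.2, 10.5, 6.81 and 9.59 CPM in controls 1 to 4, and it rose in each (log2 fold change 1.49, SE 0.24, adjusted p = 0.0027 for KO2 and 0.0268 for KO2_RES). HK1, the hexokinase of most tissues, was at 23.7 to 31.1 CPM in line 2 and 20.4 to 28.1 CPM in control and passed neither test (adjusted p = 0.346 for KO2 and 0.41 for KO2_RES). CTNNB1, which encodes beta-catenin, was at 241 to 501 CPM in line 2 and 466 to 558 CPM in control, and its groups overlapped (adjusted p = 0.783 for KO2 and 0.16 for KO2_RES).

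Several of the genes that rose most in line 2, among them HAS2 and PRRX1, were at or near the detection limit in control. The 14 largest rises in genes of at least 2 CPM, which also passed against each pair of controls, were HAS2, RASEF, PRRX1, SLFN11, DIO3, B3GAT1, SLFN13, CLMP, ZBTB16, DPYD, RPS6KA2, TPTEP1, APCS and FLRT3. A library at 3 counts has 0.0407 to 0.0563 CPM in line 2 and 0.0438 to 0.0537 CPM in control, which is taken as the floor and covers counting error only. No fold is given below for a gene with at most 9 counts in every library of a group.

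RASEF, a Rab-family GTPase with calcium-binding motifs, had 54.0 and 50.3 CPM in KO2 and 48.0 and 35.6 CPM in KO2_RES, against 0.161, 0.307, 0.186 and 0.231 CPM in controls 1 to 4. The line 2 mean was 212 times the control mean (log2 fold change 7.69, SE 0.23, adjusted p = 1.39e-07 for KO2 and 1.7e-07 for KO2_RES). HAS2 makes hyaluronan, a sugar polymer of the extracellular matrix. It had 3.40 and 3.39 CPM in KO2 and 5.03 and 2.57 CPM in KO2_RES, against 0, 0.0146, 0.0339 and 0 CPM in controls 1 to 4, at most 2 counts in any control (adjusted p = 0.000124 for KO2 and 0.00011 for KO2_RES). PRRX1, a homeobox factor of mesenchyme, had 1.77 and 1.05 CPM in KO2 and 5.12 and 2.17 CPM in KO2_RES, against 0.0179, 0.0292, 0.0169 and 0 CPM in controls 1 to 4 (adjusted p = 0.000317 for KO2 and 8.42e-05 for KO2_RES). SLFN11, a restrictor of stressed replication forks known for sensitising cells to DNA-damaging drugs, had 10.2 and 12.2 CPM in KO2 and 11.4 and 11.05 CPM in KO2_RES, against 0.0358, 0.0438, 0.152 and 0.160 CPM in controls 1 to 4 (adjusted p = 1.3e-05 for KO2 and 1.41e-05 for KO2_RES). Its relative SLFN13 was at 2.19 to 4.71 CPM in line 2 and 0 to 0.142 CPM in control.

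DPYD, which starts the breakdown of pyrimidine bases, was at 7.91 and 8.88 CPM in KO2 and 10.7 and 11.7 CPM in KO2_RES, against 0.322, 0.453, 0.339 and 0.337 CPM in controls 1 to 4. All line 2 libraries were far above all controls, at 27.0 times the control mean (log2 fold change 4.73, SE 0.17, adjusted p = 6.38e-07 for KO2 and 2.68e-07 for KO2_RES). DIO3, which inactivates thyroid hormone, varied more within line 2, at 5.74 and 2.69 CPM in KO2 and 11.1 and 1.32 CPM in KO2_RES, against 0.107, 0.0438, 0.102 and 0.0355 CPM in controls 1 to 4 (adjusted p = 0.0044 for KO2 and 0.00291 for KO2_RES). The kinase RPS6KA2 (RSK3) also spread widely, with 2.51 to 11.7 CPM in line 2 and 0.119 to 0.511 CPM in control, without overlap. B3GAT1, the glucuronyltransferase that makes the HNK-1 carbohydrate, was at 3.46 to 6.72 CPM in line 2 and 0.0358 to 0.177 CPM in control, and ZBTB16, a zinc finger factor also called PLZF, at 2.98 to 4.68 CPM in line 2 and 0.0358 to 0.254 CPM in control. The adhesion molecule CLMP had 19.96 to 28.5 CPM in line 2 and 0.412 to 1.08 CPM in control (log2 fold change 4.89, SE 0.33) and the membrane protein FLRT3 6.18 to 10.5 CPM in line 2 and 0.160 to 0.734 CPM in control (4.31, SE 0.40). APCS, serum amyloid P, is a liver plasma protein that ran against the other plasma proteins described below, at 7.21 and 4.77 CPM in KO2 and 12.5 and 5.15 CPM in KO2_RES, against 0.125, 0.0292, 0.712 and 0.550 CPM in controls 1 to 4 (log2 fold change 4.36, SE 0.72, adjusted p = 0.0088 for KO2 and 0.00516 for KO2_RES). The transcribed pseudogene TPTEP1 was at 16.8 to 19.6 CPM in line 2 and 0.106 to 1.22 CPM in control.

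**Figure D2:**
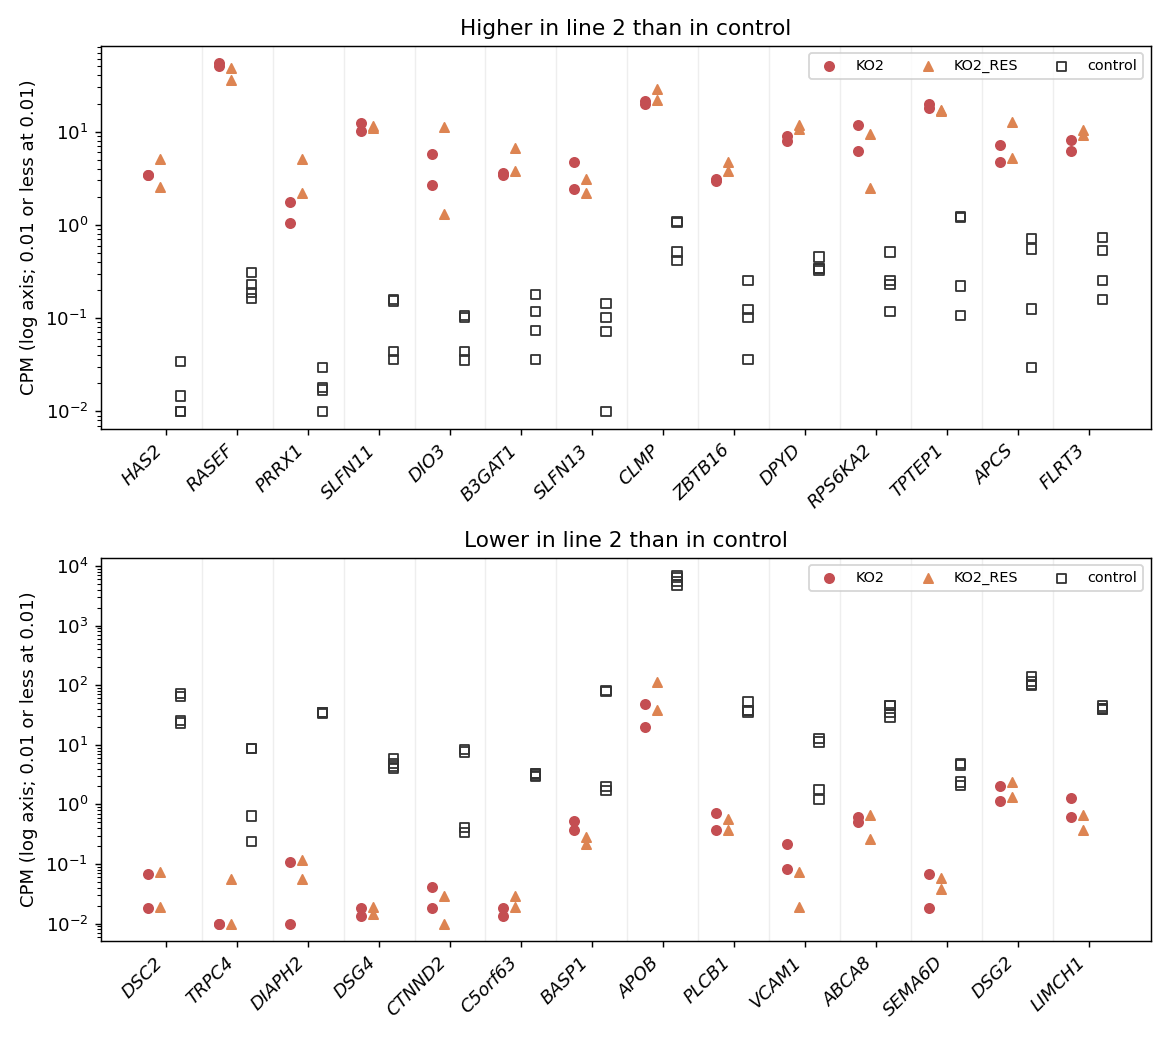
Level of each of the 14 largest rises (upper panel) and falls (lower panel) in every KO2, KO2_RES and control library, in CPM on a log axis, with values of 0.01 or less drawn at 0.01. Groups that do not overlap were a condition for the choice of these genes. Line 2 libraries therefore lie wholly above the controls in the upper panel and wholly below them in the lower one. For some genes, such as DPYD, both KO2_RES libraries lie above both KO2 libraries.

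Desmosomal and other adhesion genes were among the largest falls. DSC2, a desmosomal cadherin, had 0.0184 and 0.0679 CPM in KO2 and 0.0188 and 0.0734 CPM in KO2_RES, against 23.2, 25.8, 71.8 and 63.8 CPM in controls 1 to 4 (adjusted p = 0.000107 for KO2 and 0.00011 for KO2_RES). DSG2, its partner in most epithelia, had 1.16 and 2.06 CPM in KO2 and 1.33 and 2.35 CPM in KO2_RES, against 97.7, 103, 116 and 142 CPM in controls 1 to 4, a control mean 66.5 times that of line 2 (log2 fold change -6.04, SE 0.25, adjusted p = 9.11e-06 for KO2 and 1.01e-05 for KO2_RES). DSG4, a further desmoglein, had at most 1 count in any line 2 library, with 0.0136 to 0.0188 CPM in line 2 and 4.03 to 5.93 CPM in control. These 3 genes lie on chromosome 18, and the plaque protein JUP (plakoglobin) fell as well (log2 fold change -1.66). CTNND2, a catenin of the p120 family, was at 0.0184 and 0.0407 CPM in KO2 and 0 and 0.0293 CPM in KO2_RES, against 8.41, 7.57, 0.407 and 0.337 CPM in controls 1 to 4 (adjusted p = 0.0313 for KO2 and 0.028 for KO2_RES). VCAM1, a receptor for white blood cells, was at 0.221 and 0.0815 CPM in KO2 and 0.0188 and 0.0734 CPM in KO2_RES, against 12.9, 11.2, 1.76 and 1.22 CPM in controls 1 to 4 (log2 fold change -6.28, SE 0.91, adjusted p = 0.0147 for KO2 and 0.00885 for KO2_RES). For CTNND2 and VCAM1 the controls themselves split into a high and a low pair, and line 2 lay below each.

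Several of the large falls left line 2 with almost no transcript. DIAPH2, a formin that assembles actin filaments, was at 0 and 0.109 CPM in KO2 and 0.0563 and 0.117 CPM in KO2_RES, against 35.3, 34.9, 35.0 and 33.7 CPM in controls 1 to 4; its controls varied little (adjusted p = 3.67e-06 for KO2 and 4.57e-06 for KO2_RES). TRPC4, a calcium-permeable channel, had 0 counts in 3 of 4 line 2 libraries, with 0 and 0 CPM in KO2 and 0.0563 and 0 CPM in KO2_RES, against 8.56, 8.60, 0.237 and 0.638 CPM in controls 1 to 4 (adjusted p = 0.0289 for KO2 and 0.0425 for KO2_RES). C5orf63 was at 0.0136 to 0.0293 CPM in line 2 and 2.92 to 3.34 CPM in control. SEMA6D, a semaphorin guidance protein, was at 0.0184 to 0.0679 CPM in line 2 and 2.05 to 4.79 CPM in control. LIMCH1, which activates non-muscle myosin, kept a low level, 0.375 to 1.30 CPM in line 2 and 39.1 to 44.8 CPM in control (log2 fold change -5.84, SE 0.26, adjusted p = 1.74e-05 for KO2 and 1.02e-05 for KO2_RES). PLCB1, a phospholipase C that acts downstream of G protein-coupled receptors, was at 0.368 to 0.720 CPM in line 2 and 35.6 to 53.4 CPM in control (log2 fold change -6.31, SE 0.34, adjusted p = 4.18e-05 for KO2 and 3.9e-05 for KO2_RES). BASP1, a membrane-associated signalling protein, was at 0.368 and 0.530 CPM in KO2 and 0.281 and 0.220 CPM in KO2_RES, against 80.9, 78.9, 1.73 and 2.004 CPM in controls 1 to 4, so its fall was far larger against controls 1 and 2 (log2 fold change -7.91) than against controls 3 and 4 (-2.47).

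Promoters of the first 2 rises and first 2 falls that the reference table holds, and of DIAPH2, which was added after its values were seen because it was near 0 in line 2 alone, are shown because these genes differed between line 2 and control by presence or near-absence. Each runs from 250 bases before to 50 bases after the annotated start in RefSeq on GRCh38.p14, 5′ to 3′ on the gene's strand, with CG dinucleotides in capitals. The table holds promoters for 78 of the 107 genes named by rule.
RASEF chr9:83063093-83063392 (- strand): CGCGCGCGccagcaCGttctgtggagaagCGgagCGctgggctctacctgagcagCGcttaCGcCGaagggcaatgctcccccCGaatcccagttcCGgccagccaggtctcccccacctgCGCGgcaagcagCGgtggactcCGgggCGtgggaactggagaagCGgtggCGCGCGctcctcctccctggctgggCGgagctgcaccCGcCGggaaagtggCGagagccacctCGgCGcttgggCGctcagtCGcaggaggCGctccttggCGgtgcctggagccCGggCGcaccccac
PRRX1 chr1:170663881-170664180 (+ strand): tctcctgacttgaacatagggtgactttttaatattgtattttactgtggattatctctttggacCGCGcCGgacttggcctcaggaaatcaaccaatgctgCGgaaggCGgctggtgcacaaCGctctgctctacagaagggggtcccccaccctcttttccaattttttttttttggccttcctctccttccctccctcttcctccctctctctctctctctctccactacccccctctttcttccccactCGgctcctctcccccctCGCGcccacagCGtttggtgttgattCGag
DSC2 chr18:31102372-31102671 (- strand): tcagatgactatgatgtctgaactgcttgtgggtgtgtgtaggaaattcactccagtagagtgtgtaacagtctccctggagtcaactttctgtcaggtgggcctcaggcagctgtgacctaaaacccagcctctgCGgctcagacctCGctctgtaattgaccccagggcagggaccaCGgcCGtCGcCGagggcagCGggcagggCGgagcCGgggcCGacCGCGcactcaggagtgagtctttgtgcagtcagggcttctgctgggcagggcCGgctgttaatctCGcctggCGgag
TRPC4 chr13:37869723-37870022 (- strand): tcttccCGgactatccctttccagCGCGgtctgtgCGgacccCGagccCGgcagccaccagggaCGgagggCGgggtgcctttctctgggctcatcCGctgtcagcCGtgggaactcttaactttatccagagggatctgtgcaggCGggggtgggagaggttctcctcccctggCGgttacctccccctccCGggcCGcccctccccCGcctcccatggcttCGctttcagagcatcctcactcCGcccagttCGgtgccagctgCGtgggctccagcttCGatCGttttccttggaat
DIAPH2 chrX:96684592-96684891 (+ strand): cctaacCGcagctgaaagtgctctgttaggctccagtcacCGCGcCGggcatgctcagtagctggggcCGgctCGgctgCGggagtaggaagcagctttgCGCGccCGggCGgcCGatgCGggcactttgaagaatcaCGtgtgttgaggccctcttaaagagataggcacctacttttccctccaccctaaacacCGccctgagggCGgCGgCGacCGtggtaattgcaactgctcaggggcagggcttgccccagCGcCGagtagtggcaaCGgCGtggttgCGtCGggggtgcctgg
RASEF held 33 CG dinucleotides, DIAPH2 25, TRPC4 21, DSC2 15 and PRRX1 11, while 35116 promoters of the same length had a median of 14 and quartiles of 4 and 28. RASEF thus lay above the upper quartile and the other 4 between the quartiles. TATAAA, the TATA box, and CTTTGAT, a core of TCF/LEF sites, were in none of these windows on either strand, and 11.5% and 2.62% of all promoters hold them. ACGTG, the core of the hypoxia response element, occurred in the RASEF and DIAPH2 windows, in DIAPH2 at a palindrome that matches on both strands, and in 21.4% of all promoters. These are letter matches only.

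Of 23 tested genes for hepatocyte secreted proteins, all had negative fold changes over the 4 controls, with a median log2 fold change of -2.74. Among them 5 fell (APOB, FGA, FGB, FGG and GC), or 21.7%, where 4.08% of all tested genes were shared falls. The lists below are to be read beside this share, beside 3.19% of all tested genes for rises, and beside 7.27% for both directions together. Against controls 1 and 2 alone the median was -3.48 and against controls 3 and 4 alone -0.54, where SERPINA1, the protease inhibitor alpha-1 antitrypsin, had a positive value (1.16). The cause of the split between controls was not tested. In line 1 the median of these secreted protein genes over the 4 controls was -1.41, and 6 of the 23 differed between the lines. APOB, the structural protein of very-low-density lipoprotein, was at 20.2 and 47.8 CPM in KO2 and 38.9 and 114 CPM in KO2_RES, against 6329, 5574, 4821 and 6897 CPM in controls 1 to 4. The lowest control stood far above the highest line 2 library, and the control mean was 107 times that of line 2 (log2 fold change -6.85, SE 0.52, adjusted p = 0.000258 for KO2 and 0.000479 for KO2_RES). The fall was -6.89 against controls 1 and 2 and -6.85 against controls 3 and 4. FGB, a chain of the clot protein fibrinogen, was at 156 and 116 CPM in KO2 and 204 and 67.4 CPM in KO2_RES, against 6165, 5879, 1646 and 1373 CPM in controls 1 to 4 (log2 fold change -4.79). FGG, another chain, was at 256 to 472 CPM in line 2 and 1577 to 4252 CPM in control (-2.93). The vitamin D carrier GC had -4.10 and the third fibrinogen chain FGA -2.33.

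Of 21 clotting and complement genes 8 fell (38.1%) and none rose, with all 21 fold changes negative and a median of -1.72 (-2.28 and -0.90 against the control pairs 1 and 2, and 3 and 4). TFPI2, an inhibitor of serine proteases of the matrix and of clotting, was at 1.25 and 1.19 CPM in KO2 and 1.13 and 0.381 CPM in KO2_RES, against 33.7, 32.9, 34.7 and 25.9 CPM in controls 1 to 4 (log2 fold change -5.06, SE 0.30, adjusted p = 0.0001 for KO2 and 5.11e-05 for KO2_RES). MBL2, the lectin that starts one arm of complement, was at 0.0552 to 0.177 CPM in line 2 and 1.37 to 2.38 CPM in control (adjusted p = 0.00065 for KO2 and 0.00037 for KO2_RES), and PROS1, protein S, at 42.2 to 54.4 CPM in line 2 and 114 to 191 CPM in control (adjusted p = 0.00252 for KO2 and 0.00166 for KO2_RES). Others that fell were F10 (-1.07), F13B (-3.90), C8A (-1.52) and CFI (-5.25), given as log2 fold changes.

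Carriers and enzymes of the hepatocyte fell in smaller numbers. Of 11 hepatic transporters 3 fell (27.3%, median -1.64). ABCA8, an ABC transporter, was at 0.515 and 0.625 CPM in KO2 and 0.263 and 0.660 CPM in KO2_RES, against 45.3, 46.2, 29.1 and 34.5 CPM in controls 1 to 4 (log2 fold change -6.22, SE 0.34, adjusted p = 4.44e-05 for KO2 and 4.06e-05 for KO2_RES). SLC22A8, an organic anion carrier, was at 0.0679 to 0.293 CPM in line 2 and 4.202 to 10.1 CPM in control, and the bile acid and drug carrier SLCO2B1 at 11.5 to 24.8 CPM in line 2 and 57.9 to 83.7 CPM in control. Against controls 3 and 4 alone the transporter median was -0.29. Among 15 tested cytochromes P450 and glucuronosyltransferases 3 fell (20%, median -0.49), UGT2B7, UGT1A1 and UGT1A6. UGT2B7 was at 0.600 to 1.30 CPM in line 2 and 4.88 to 6.15 CPM in control, and UGT1A1 and UGT1A6, which share exons so that reads cannot be assigned to one with certainty, were at most 4 counts in line 2. CPS1, the entry enzyme of the urea cycle, was at 847 and 914 CPM in KO2 and 1227 and 1275 CPM in KO2_RES, against 5456, 5184, 3775 and 4089.7 CPM in controls 1 to 4 (log2 fold change -2.14, SE 0.17, adjusted p = 0.00019 for KO2 and 0.000636 for KO2_RES). With it, TDO2 and PRODH2 fell among 19 genes of amino acid breakdown and the urea cycle (median -0.62), and GNMT, a glycine methyltransferase, rose (0.235 to 0.846 CPM in line 2 and 0.0179 to 0.169 CPM in control), although GNMT lost its call against controls 3 and 4 alone. FABP1, the liver fatty acid binding protein, was at 8.496 to 26.1 CPM in line 2 and 51.8 to 209 CPM in control. CIDEB, a lipid droplet protein, was at 2.45 to 3.34 CPM in line 2 and 5.14 to 7.25 CPM in control, the 2 falls among 18 genes of fatty acid uptake, synthesis and storage (11.1%). None of 16 hepatocyte transcription factors was a shared change (median -0.10).

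Chaperones of the endoplasmic reticulum had the highest share of shared genes of the 37 lists: 9 of 17 fell (52.9%) and none rose, with a median of -0.65 (-0.81 and -0.47 against the control pairs 1 and 2, and 3 and 4). PDIA4, a protein disulfide isomerase, was at 501 and 426 CPM in KO2 and 546 and 468 CPM in KO2_RES, against 1229.8, 1264, 992 and 970.0 CPM in controls 1 to 4 (log2 fold change -1.20, SE 0.13, adjusted p = 0.0016 for KO2 and 0.00289 for KO2_RES). HSP90B1, the HSP90 of this compartment, was at 1373 and 1177 CPM in KO2 and 1442 and 1379 CPM in KO2_RES, against 2465, 2494, 2063 and 1982 CPM in controls 1 to 4 (log2 fold change -0.75, SE 0.12, adjusted p = 0.00822 for KO2 and 0.0204 for KO2_RES). DNAJC3, a co-chaperone, was at 242 to 274 CPM in line 2 and 413 to 485 CPM in control (-0.74, SE 0.09). No control library overlapped line 2 for these genes. The others were PDIA3 (-0.63), PDIA6 (-0.79), P4HB (-0.76), SDF2L1 (-0.77), CRELD2 (-0.76) and XBP1 (-0.83), the last a transcription factor that raises chaperone genes. For 2 of the 17 genes line 2 differed from line 1. Genes directed by ATF4, the factor of the integrated stress response, had a median of 0.58 over 21 tested, 18 of them positive, but none passed in KO2 and KO2_RES alike.

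Of 22 hypoxia response genes outside glycolysis, BNIP3, ANGPTL4 and P4HA1 fell (13.6%, median -0.40). BNIP3, a mitophagy receptor, was at 49.9 and 56.0 CPM in KO2 and 53.5 and 47.6 CPM in KO2_RES, against 118, 110.3, 69.8 and 72.7 CPM in controls 1 to 4 (log2 fold change -0.84, SE 0.17, adjusted p = 0.041 for KO2 and 0.0308 for KO2_RES), and line 2 lay below each control but nearer to controls 3 and 4. P4HA1, a collagen prolyl hydroxylase, was at 41.1 to 59.6 CPM in line 2 and 81.0 to 153 CPM in control. ANGPTL4, an inhibitor of lipoprotein lipase, was at 14.6 to 25.98 CPM in line 2 and 31.4 to 64.7 CPM in control. Against controls 3 and 4 alone the list median was -0.05. In line 1 the list median over control was -0.61, and 5 of the 22 genes differed between the lines. In glycolysis 1 of 21 genes fell (4.76%), PFKL, the liver phosphofructokinase, at 129 to 168 CPM in line 2 and 201 to 239.6 CPM in control, and the median was -0.08. Fold changes were negative for each of 13 genes of the mitochondrial genome (median -1.06, or -1.51 and -0.48 against the control pairs), and MT-CYB and MT-CO2, subunits of respiratory complexes, fell. The line 1 median of these 13 genes over control was -0.71, and 0 of them were called between the lines. MT-CYB was at 68.2 and 70.3 CPM in KO2 and 57.1 and 74.1 CPM in KO2_RES, against 226, 191, 110.1 and 105 CPM in controls 1 to 4.

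Adhesion receptors, growth factor receptors and ligands changed in both directions. In the list of epithelial and junction genes EPCAM and CLDN7 rose and DSC2, DSG2, JUP and KRT7 fell, 6 of 22 (27.3%). EPCAM, an adhesion molecule also used as a progenitor and liver cancer stem cell marker, was at 37.9 and 35.7 CPM in KO2 and 40.1 and 37.6 CPM in KO2_RES, against 4.62, 3.70, 1.61 and 1.31 CPM in controls 1 to 4 (log2 fold change 3.75, SE 0.37, adjusted p = 0.000415 for KO2 and 0.000374 for KO2_RES). Line 2 was uniform and far above all controls. In the stem cell marker list, 16 tested, EPCAM was the single rise, and CD47, SOX2 and PROM1 fell. CD47, a signal that blocks phagocytosis, was at 11.5 and 14.6 CPM in KO2 and 12.4 and 13.9 CPM in KO2_RES, against 49.3, 50.01, 36.6 and 43.7 CPM in controls 1 to 4 (log2 fold change -1.78, SE 0.13, adjusted p = 0.000229 for KO2 and 0.000229 for KO2_RES), and SOX2, a pluripotency factor, was at no more than 5 counts in line 2, with 0 to 0.0938 CPM in line 2 and 0.424 to 1.98 CPM in control. PROM1 (CD133) had a log2 fold change of -5.53, which was -1.95 against controls 1 and 2 and -6.47 against controls 3 and 4. Among 16 Wnt/beta-catenin targets TBX3 and ZNRF3 fell (12.5%, median -0.25). TBX3, a T-box factor, was at 10.6 and 9.99 CPM in KO2 and 8.83 and 10.4 CPM in KO2_RES, against 151, 149.9, 41.6 and 43.8 CPM in controls 1 to 4 (log2 fold change -3.28, SE 0.46, adjusted p = 0.00882 for KO2 and 0.00835 for KO2_RES).

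Of 22 receptor tyrosine kinases and ligands, FGFR2, PDGFRA and TGFA rose and MET, ERBB2 and FGFR4 fell (27.3%, median -0.22). MET, the receptor of hepatocyte growth factor, was at 149.6 and 161 CPM in KO2 and 138 and 122 CPM in KO2_RES, against 389.5, 365, 330.1 and 365 CPM in controls 1 to 4 (log2 fold change -1.35, SE 0.10, adjusted p = 0.000394 for KO2 and 0.000136 for KO2_RES). FGFR2, a fibroblast growth factor receptor, was at 0.469 to 1.005 CPM in line 2 and 0.0292 to 0.179 CPM in control and ERBB2 at 70.2 to 83.9 CPM in line 2 and 115 to 131 CPM in control. In the transforming growth factor beta and BMP list, 22 tested, the ligands BMP7 and TGFB3 rose, and the ligands TGFB2 and INHBB and the antagonists or binding proteins FST and LTBP1 fell. BMP7 was at 1.60 and 2.35 CPM in KO2 and 1.11 and 1.61 CPM in KO2_RES, against 0.179, 0.131, 0.136 and 0.160 CPM in controls 1 to 4 (log2 fold change 3.42, SE 0.31, adjusted p = 0.00017 for KO2 and 0.000435 for KO2_RES). FST, follistatin, which neutralises activin, was at 203 and 192 CPM in KO2 and 209 and 202 CPM in KO2_RES, against 482, 461, 536 and 567 CPM in controls 1 to 4 (log2 fold change -1.34, SE 0.11, adjusted p = 0.000364 for KO2 and 0.000446 for KO2_RES), and LTBP1, which anchors latent TGF-beta in the matrix, at 57.7 to 64.9 CPM in line 2 and 137 to 161 CPM in control. TGFB2 averaged 0.100 CPM in line 2 and 3.75 CPM in control, and TGFB3 3.91 and 1.26 CPM in the same order (log2 fold change 1.63 for TGFB3).

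ITGAV and ITGB5, which pair as a vitronectin receptor, fell. ITGAV was at 276 to 352 CPM in line 2 and 441 to 554 CPM in control and ITGB5 at 264 to 319 CPM in line 2 and 382 to 532 CPM in control. With LAMB3, a laminin chain, and COL4A5 (-2.11) they were the 4 falls among 24 integrins, laminins and collagens (16.7%, median -0.35). LAMB3 was at 2.78 and 4.47 CPM in KO2 and 2.10 and 2.77 CPM in KO2_RES, against 10.4, 12.5, 29.97 and 32.2 CPM in controls 1 to 4 (log2 fold change -2.84, SE 0.39, adjusted p = 0.0106 for KO2 and 0.00504 for KO2_RES). VIM, the intermediate filament vimentin, was the sole shared change among 12 mesenchymal genes, at 105 and 83.7 CPM in KO2 and 83.0 and 52.5 CPM in KO2_RES, against 303, 308, 266 and 221 CPM in controls 1 to 4 (log2 fold change -1.78, SE 0.24, adjusted p = 0.0114 for KO2 and 0.00362 for KO2_RES). Of 18 neuronal and synaptic adhesion genes CNTN1 and NRP2 fell and UNC5B rose. CNTN1, a contactin, was at 301 and 320.0 CPM in KO2 and 354 and 411 CPM in KO2_RES, against 1150.0, 1195, 981 and 1055 CPM in controls 1 to 4 (log2 fold change -1.67, SE 0.10, adjusted p = 4.18e-05 for KO2 and 0.00013 for KO2_RES). Of 16 ion channel genes KCNK1 and CFTR rose and CACNA2D1, CACNA1H and TRPM4 fell (31.2%). CACNA2D1, a calcium channel subunit, was at 0.607 and 0.353 CPM in KO2 and 0.863 and 0.602 CPM in KO2_RES, against 29.9, 27.1, 37.2 and 32.8 CPM in controls 1 to 4 (log2 fold change -5.75, SE 0.22, adjusted p = 3.57e-06 for KO2 and 4.73e-06 for KO2_RES). The chloride channel CFTR was at 21.2 to 49.2 CPM in line 2 and 1.71 to 7.69 CPM in control (log2 fold change 2.88, SE 0.41, adjusted p = 0.00694 for KO2 and 0.00206 for KO2_RES). CFTR and EPCAM also stand in the list of bile duct cell (cholangiocyte) markers, in which KRT7 was a shared fall. Of its 7 tested genes 4 had positive and 3 negative fold changes, the latter KRT7 (-1.55), SOX9 (-0.67) and AQP1 (-1.01). The list summed to 191 to 319 CPM in line 2 and 17.6 to 66.8 CPM in control. Most of that in line 2 was KRT19, at 229.8 and 194 CPM in KO2 and 211 and 107 CPM in KO2_RES, against 0.501, 0.657, 38.6 and 34.2 CPM in controls 1 to 4, which was no shared change. What cells of another kind contribute to these levels was not tested.

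Of 18 tested cancer-testis antigens, 5 rose (27.8%, against 3.19% of all tested genes), MAGEA1, MAGEA10, GAGE1, PAGE1 and PAGE5, none fell and 13 did not pass, with a list median of 1.64. The median was 3.32 against controls 1 and 2 and 0.84 against controls 3 and 4. MAGEA10 was at 111 and 95.3 CPM in KO2 and 100.3 and 68.1 CPM in KO2_RES, against 8.14, 7.52, 33.6 and 29.1 CPM in controls 1 to 4 (log2 fold change 2.25, SE 0.46, adjusted p = 0.0155 for KO2 and 0.0285 for KO2_RES). PAGE1 was at 4.03 and 4.25 CPM in KO2 and 2.70 and 2.10 CPM in KO2_RES, against 0.233, 0.190, 0.779 and 0.674 CPM in controls 1 to 4 (log2 fold change 2.75, SE 0.42, adjusted p = 0.0027 for KO2 and 0.0123 for KO2_RES). GAGE1 was at 0.205 to 0.754 CPM in line 2 and 0 to 0.0177 CPM in control, and its reads may be shared with near-identical GAGE copies, so that its level is uncertain. Of 29 HOX genes, which pattern the body axis, HOXB7, HOXB9 and HOXD3 rose and HOXA3 and HOXA5 fell (17.2%). HOXB7 was at 9.69 and 8.73 CPM in KO2 and 8.44 and 7.28 CPM in KO2_RES, against 3.99, 4.29, 4.32 and 4.24 CPM in controls 1 to 4 (log2 fold change 1.01, SE 0.11, adjusted p = 0.000719 for KO2 and 0.00281 for KO2_RES), HOXA3 at 10.4 to 10.99 CPM in line 2 and 18.3 to 30.9 CPM in control and HOXD3 at 0.244 to 0.690 CPM in line 2 and 0 to 0.0177 CPM in control.

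The X chromosome had the highest share of rises of any chromosome. Of 533 tested coding genes there, 101 were shared rises (18.9%) and 16 shared falls, with a median log2 fold change of 0.35, whereas over all 14320 coding genes 3.78% were shared rises and 5.33% shared falls. On chromosome 1, 8.02% of 1447 were shared rises. Shared falls were most frequent on chromosome 13 (36 of 240 genes), chromosome 4 (82 of 553), chromosome 7 (82 of 683) and chromosome 3 (91 of 789). The line 2 medians over control were -0.32 on chromosome 13, -0.18 on chromosome 4, -0.11 on chromosome 7 and -0.08 on chromosome 3. In line 1 the medians over control were -0.01 on X, -0.08 on chromosome 13, -0.27 on chromosome 4, -0.09 on chromosome 7 and 0.07 on chromosome 3. No test was run for a chromosome.

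**Figure D3:**
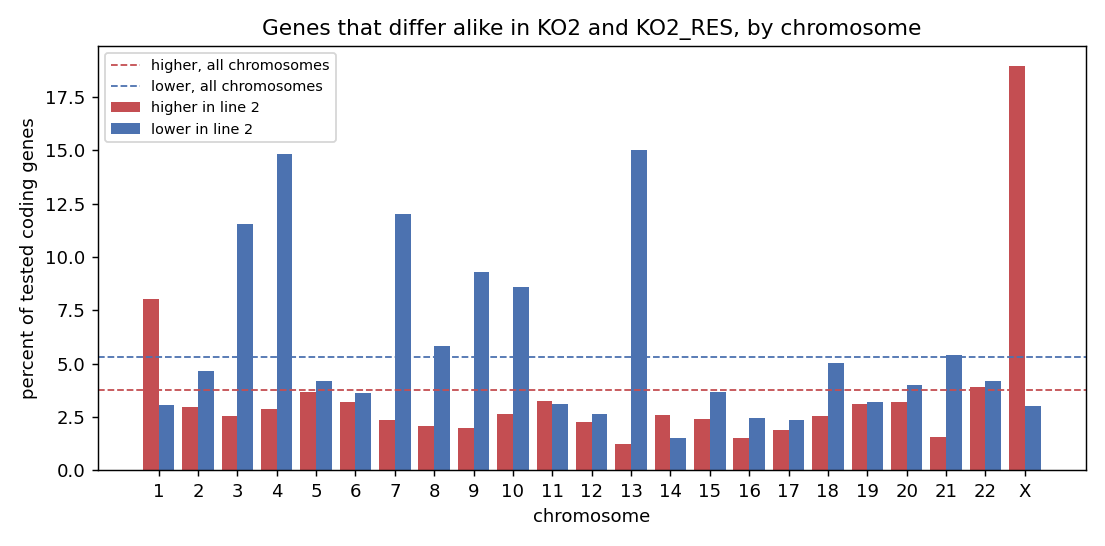
Percent of tested coding genes on each chromosome that were higher (red) or lower (blue) in KO2 and KO2_RES than in control; dashed lines give the percentages over all chromosomes, 3.78% and 5.33%. X has the tallest red bar, at 18.9%, and chromosomes 13 and 4 the tallest blue bars, at 15% and 14.8%.

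Shared falls lay side by side along parts of several chromosomes. Stretches were found by joining windows of 20 tested coding genes, in GENCODE release 29 order, in which at least 10 were shared in the same direction. They were chosen by these values, so their counts and medians are a description. The longest ran on chromosome 3 from PROS1 to GSK3B, where 44 of 72 genes fell and 69 had negative fold changes. Its median was -1.01, with quartiles of -1.30 and -0.84, and it was -1.06 and -1.03 against controls 1 and 2 and controls 3 and 4. In line 1 the median was -0.01, and 53 of the 72 genes differed between line 2 and line 1. GSK3B, a kinase that marks beta-catenin for destruction among many other substrates, averaged 30.9 CPM in line 2 and 61.8 CPM in control (log2 fold change -1.0, SE 0.09). The adhesion molecule ALCAM averaged 82.7 CPM in line 2 and 292 CPM in control (log2 fold change -1.82, SE 0.16) and the copper chaperone COX17 11.3 CPM in line 2 and 26.9 CPM in control (log2 fold change -1.26, SE 0.17). CD47 and PROS1, described above, lie in this stretch too, and CCDC80 was its single shared rise (1.70).

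On chromosome 9, from NUDT2 to ALDH1B1, 36 of 60 genes fell and 57 had negative fold changes, with a median of -0.90 in line 2 and -0.21 in line 1. The stretch holds VCP, an ATPase that unfolds proteins for degradation, with a mean of 544 CPM in line 2 and 1208 CPM in control (log2 fold change -1.15, SE 0.17). TLN1, talin, which links integrins to actin, averaged 439 CPM in line 2 and 1012 CPM in control (log2 fold change -1.21, SE 0.13), and the glyoxylate reductase GRHPR 44.3 CPM in line 2 and 119.7 CPM in control (log2 fold change -1.43, SE 0.09). Some genes just outside these stretches had values of like size. They were UBE2R2 at -0.71 and DCAF12 at -0.83 before NUDT2, IGFBPL1 at -0.78 after ALDH1B1, and LRRC58 at -0.73 and FSTL1 at -0.76 after GSK3B. These ends are therefore set by the window. Before PROS1 the 5 nearest genes all had positive values, from 0.17 (CHMP2B) to 0.76 (ZNF654). Shorter stretches of falls were SOX2 to LIPH on chromosome 3 (18 of 36, median -0.66), ATP5ME to TACC3 (10 of 19, -0.73) and LRPAP1 to ACOX3 (12 of 29, -0.54) on chromosome 4, ATP6V0E2 to ACTR3B on chromosome 7 (14 of 27, -0.70) and CCDC186 to PLEKHA1 on chromosome 10 (17 of 34, -0.57). The line 1 medians there were -0.07, -0.57, -0.37, 0.35 and -0.43 in the same order. A single stretch of rises, KLHL13 to NKAP on X, had 10 of 20 genes higher (median 0.67, and -0.04 in line 1).

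**Figure D4:**
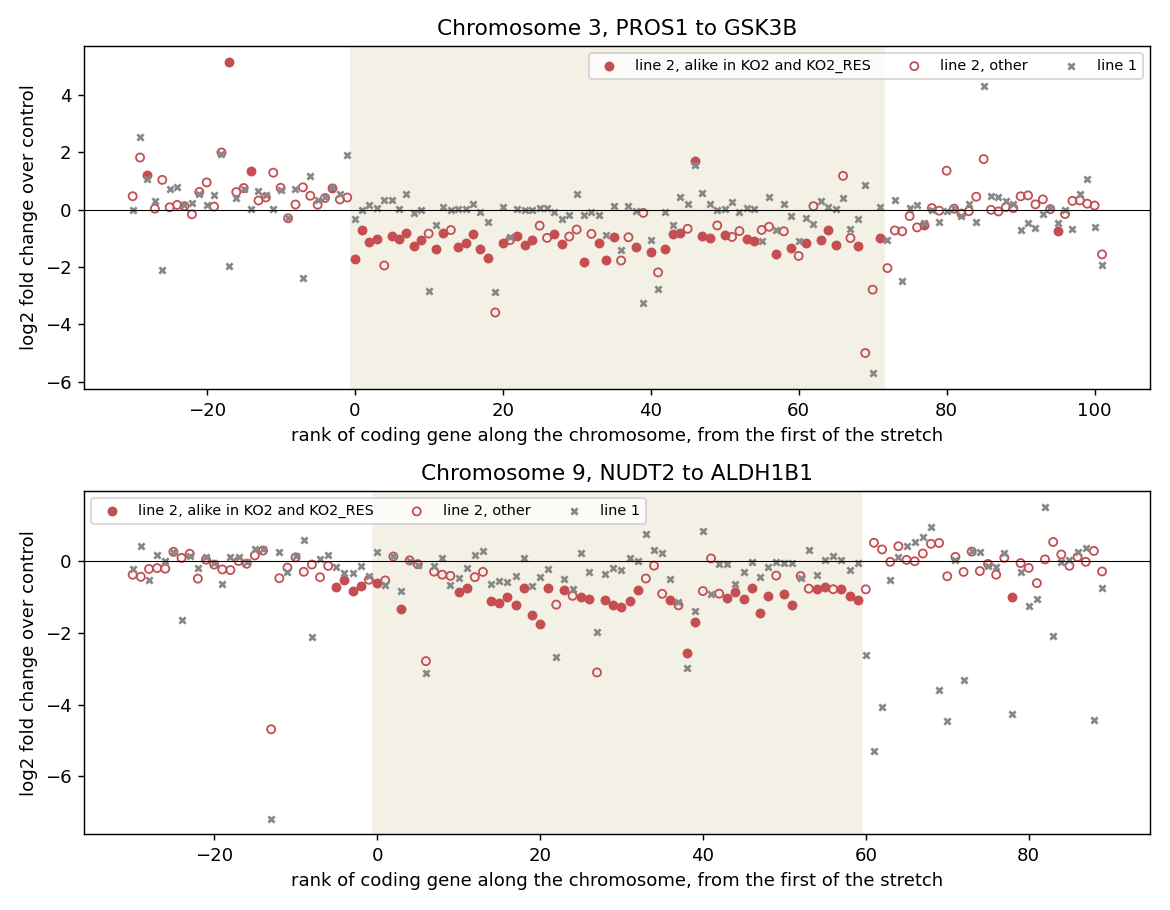
Log2 fold change over control of each tested coding gene in order along chromosome 3 (upper) and chromosome 9 (lower), with 30 genes on either side of the shaded stretch; filled circles are shared genes of line 2, open circles its other genes and crosses line 1. In the shaded stretches the line 2 genes lie mostly below 0 (medians -1.01 and -0.90), and the crosses lie nearer to 0 (-0.01 and -0.21).

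Line 2 also differed from line 1. Of the 1494 shared genes, 913 (61.1%) differed between line 2 and line 1, 467 higher and 446 lower in line 2, where 26.9% of all tested genes did so. The controls cancel in this contrast, but the line 2 libraries that form one side of it were also used to choose the shared genes. The share of 61.1% is therefore in part set by that choice, and its excess over 26.9% was not tested. The other 581 shared genes did not pass, which does not show that they were alike in the lines. The 8 largest differences each way were chosen by this contrast, so their values are a description.

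APOB lay on opposite sides of control, with 20.2 to 114 CPM in line 2, 10432 to 27624 CPM in line 1 and 4821 to 6897 CPM in control. CHODL, a C-type lectin, had 0 to 0.0587 CPM in line 2, 6.67 to 17.4 CPM in line 1 and 0.248 to 1.27 CPM in control. DIAPH2, BASP1, PLCB1 and C5orf63, near-absent or low in line 2, were present in line 1 at 35.8 to 51.7 CPM, 24.2 to 46.9 CPM, 26.2 to 55.3 CPM and 3.48 to 4.29 CPM. The long non-coding RNA LINC00879 had 0 counts in all 4 line 2 libraries, with 2.35 to 2.997 CPM in line 1 and 1.47 to 1.90 CPM in control.

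Among genes higher in line 2 than in line 1, ZNF704, a zinc finger protein, was at 92.1 to 118 CPM in line 2, 0.0283 to 0.0800 CPM in line 1 and 36.4 to 44.6 CPM in control, so that line 1 was near the floor. KCNK1, a potassium leak channel, was at 13.5 to 15.8 CPM in line 2, 0 to 0.0391 CPM in line 1 and 1.12 to 2.70 CPM in control. SLC16A7, a transporter of pyruvate and lactate (MCT2), was at 30.7 to 52.7 CPM in line 2, 0.215 to 0.311 CPM in line 1 and 4.98 to 6.03 CPM in control. The transcription factor MAF was at 13.4 to 22.8 CPM in line 2, 0.0566 to 0.480 CPM in line 1 and 0.983 to 2.42 CPM in control. For these 4 genes control lay between the lines. BEND4 (19.8 to 28.6 CPM in line 2 and 1.18 to 5.48 CPM in control) and CLMP followed this order too, while HAS2 and RASEF were low in line 1 and in control (HAS2 0 to 0.0566 CPM in line 1, RASEF 0.274 to 0.752 CPM in line 1). DSC2 and DSG4 were near the floor in both lines, and their difference did not pass. DSC2 was at 0.0184 to 0.0734 CPM in line 2, 0.0196 to 0.144 CPM in line 1 and 23.2 to 71.8 CPM in control (adjusted p = 0.822 for line 2 against line 1) and DSG4 at 0.0136 to 0.0188 CPM in line 2, 0 to 0.0466 CPM in line 1 and 4.03 to 5.93 CPM in control (adjusted p = 0.963).

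**Figure D5:**
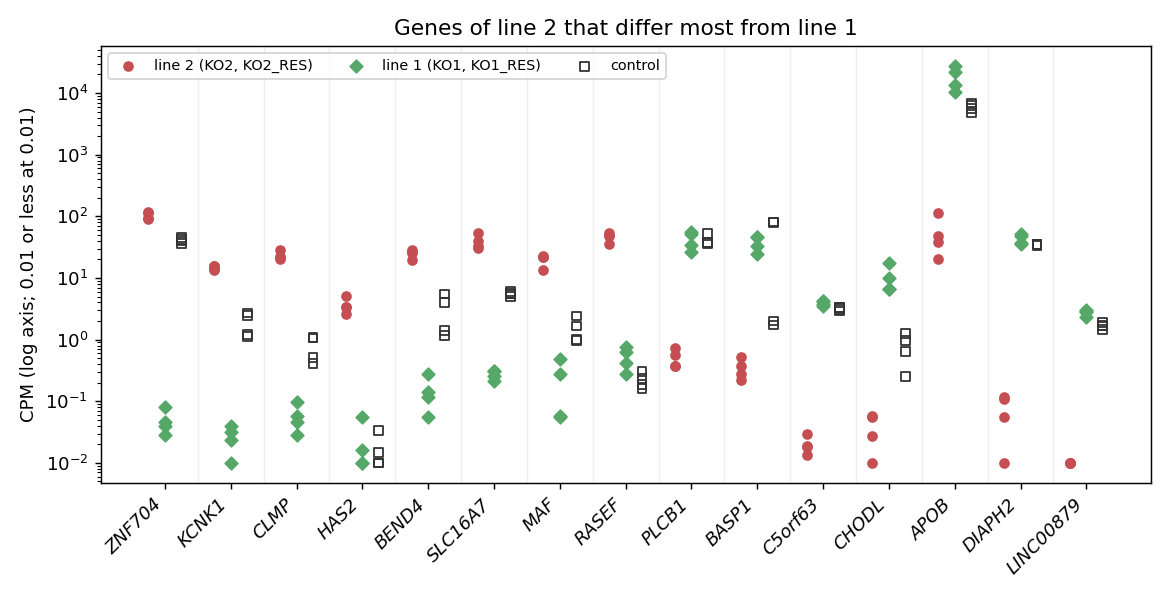
Level in CPM (log axis, values of 0.01 or less drawn at 0.01) of the 8 genes highest and 7 of the 8 lowest in line 2 relative to line 1, in each line 2, line 1 and control library. APOB lies at 20.2 to 114 CPM in line 2, at 10432 to 27624 CPM in line 1 and between these in control.

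The remaining lists held few shared genes. Of 18 interferon-stimulated genes ISG15 and IFI27 rose (11.1%, median 0.54). ISG15, a ubiquitin-like protein, was at 83.1 and 116 CPM in KO2 and 102 and 109.7 CPM in KO2_RES, against 31.2, 32.7, 44.5 and 49.8 CPM in controls 1 to 4 (log2 fold change 1.37, SE 0.16, adjusted p = 0.00213 for KO2 and 0.00151 for KO2_RES), and IFI27 lost its call against controls 3 and 4 alone. Of 16 YAP/TAZ targets ANKRD1 and CCN1 rose (12.5%, median 0.27), with 98.4 to 172 CPM in line 2 and 33.9 to 63.2 CPM in control for ANKRD1 and 57.3 to 86.0 CPM in line 2 and 30.97 to 42.1 CPM in control for CCN1. Among 17 NRF2 targets HMOX1, heme oxygenase, rose (139 to 225 CPM in line 2 and 80.6 to 100.2 CPM in control) and TALDO1, AKR1B10 and AKR1C3 fell. The aldo-keto reductases are near-identical in places, so their counts are uncertain. In pyrimidine and nucleotide metabolism DPYD, TYMP and DPYS rose and none of 17 fell. SAA2, whose reads may come from SAA1, was the sole rise among 18 NF-kB targets and cytokines, and LCN2 and VCAM1 fell. TM7SF2 was the 1 fall among 23 cholesterol synthesis genes (median -0.35), and DIO3 the 1 rise among 17 imprinted and oncofetal genes (median 0.01). No shared change was found among 23 cell cycle genes (median -0.16), 8 antigen presentation genes or 4 endothelial markers. PDGFRA was the shared rise of the fibroblast list, below 1 CPM in every line 2 and control library. The medians were unchanged when genes at the floor in 1 group were set to the floor.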

How the data were processed

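RNA of PLC/PRF/5 cells was sequenced from 12 libraries made with a stranded mRNA kit, per the labels. The deposited files hold raw counts of reads per gene, for which the submitters' processing notes name STAR 2.6.0b and GRCh37. Trimming and filters are not given in the sources used here. The fourth column (the stranded count) was used, since it held 19.77 to 21.14 times the counts of the other strand. The 4 lines of unassigned reads (24.1% to 31.45% of reads in line 2, highest in KO2_RES number 2, and 23.24% to 28.6% in control) were left out. Of 57820 genes, 38739 had a symbol, 38645 from a gene-name table and 94 from GENCODE release 29 (GRCh38), which also gave chromosomes and gene order; genes without one held 5.63% of the counts.

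Counts were fitted with edgeR 4.0.16 in R 4.3.3: TMM scaling, filterByExpr, 5 groups by title over all 12 libraries (7 residual degrees of freedom, common biological coefficient of variation 25.8%), quasi-likelihood tests, and Benjamini-Hochberg adjustment over 20559 genes. CPM are counts scaled to a library size of 1000000 after TMM and do not correct for gene length. Sizes are the mean of KO2 and KO2_RES minus control on the log2 scale. Floors cover counting error only, while each SE comes from the quasi-likelihood fit and includes the spread between libraries. No molecular identifiers are recorded. The script was tested on simulated counts. Alternatives were DESeq2 1.42.0, scaling by RLE, unstranded counts, keeping low counts, other groupings and blocks, each pair of controls, and each library left out.

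The labels do not say what a shared library number stands for, and the reported tests have no block. Replicate libraries differed beyond sampling noise, and none was counted as a duplicate.

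The members and the 37 gene lists (700 of 708 entries matched) were chosen with earlier results of these data known. Named genes were the 14 largest rises and falls among shared genes with a symbol, at least 2 CPM, groups without overlap and a call against each control pair; up to 3 shared members a list; the 8 largest differences from line 1 each way; called KO2_RES against KO2 genes; the hexokinases and CTNNB1. Other shared members of a list and genes of a stretch were named after their values were seen. Some genes that the rule names are not reported here.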

Additional observations from a re-analysis of the deposited data

Results flagged for a closer look

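Line 2 and line 1 differed, by the edgeR test of line 2 minus line 1, for the genes listed here with the log2 difference in parentheses. Why the lines differ was not tested.

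Higher in line 2 than in line 1, by 2 or more on the log2 scale, were BEND4 (7.47), SLC16A7 (7.14), MAF (7.02), RASEF (6.58), TPTEP1 (5.89), SLFN11 (5.10), FABP1 (3.86), APCS (3.83), SLFN13 (3.80), BMP7 (3.57), B3GAT1 (2.95), PAGE1 (2.67), RPS6KA2 (2.49), CACNA2D1 (2.44), UGT2B7 (2.39) and MAGEA10 (2.33). Smaller positive differences were those of FGFR2 (1.85), CIDEB (1.73), TFPI2 (1.72), ANKRD1 (1.61), GAGE1 (1.58), EPCAM (1.47), HK2 (1.32), SLCO2B1 (1.27), PDGFRA (1.26), FLRT3 (1.25), CCN1 (1.0), FST (0.98), ISG15 (0.76), CTNNB1 (0.73), PRODH2 (0.58) and ERBB2 (0.31).

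Lower in line 2 than in line 1, by 2 or more on the log2 scale, were APOB (-8.47), BASP1 (-6.75), PLCB1 (-6.33), MBL2 (-3.73), CFTR (-3.62) and FGB (-2.03). Smaller negative differences were those of AKR1C3 (-1.98), CPS1 (-1.78), DPYD (-1.72), FGG (-1.52), PROS1 (-1.40), DSG2 (-1.38), HKDC1 (-1.20), CNTN1 (-1.17), LIMCH1 (-1.11), CD47 (-0.90), PDIA4 (-0.71), HOXA3 (-0.70), HOXB7 (-0.54), TYMP (-0.51), DNAJC3 (-0.47) and MET (-0.43). The HKDC1 value averages knockout and rescue in each line, and in line 2 these lay on opposite sides of control.

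For genes with at most 9 counts in every library of a line the adjusted p of this edgeR test is given in place of a difference. Higher in line 2 were ZNF704 (6.97e-11), CLMP (1.24e-06), KCNK1 (1.57e-06), HAS2 (2.3e-05), PRRX1 (4.62e-05), ABCA8 (0.000203) and SLC22A8 (0.00842). Lower in line 2 were C5orf63 (5.53e-08), DIAPH2 (8.56e-08), LINC00879 (1.57e-06), CHODL (1.96e-05), UGT1A1 (4.48e-05), UGT1A6 (0.00165), LCN2 (0.0235) and TRPC4 (0.026).

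A control library lay far from the other 3 by Dixon's ratio for 4 of the genes reported, where chance gives about 1 in 20. The rule named 107 genes in all, and no excess over that rate was tested or is claimed. Control 4 was highest for HK1 (28.1 CPM) and PLCB1 (53.4 CPM) and lowest for ANKRD1 (33.9 CPM), and control 2 was highest for DPYD (0.453 CPM). Of these, HK1 was not called in line 2, and line 2 and control did not overlap for the other 3.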

How the results depend on the processing

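Scaling by RLE, unstranded counts and controls 3 and 4 alone kept the counts against control and of shared genes within 1.5 times. The following did not, with the count of calls for KO2 against control first, then KO2_RES against control, then shared genes: DESeq2 3134, 3112 and 2306; no filter on low counts 3385, 3551 and 2568; controls 1 and 2 alone 3861, 3856 and 3097; a 2-fold minimum change 1014, 996 and 721. Grouping by the genotype field, added after seeing the data, gave 3347 and 3566 calls and 1786 shared genes, of which 1397 were among the 1494. A fit of only the groups compared gave 654 for KO2_RES and 607 shared genes, and joining each line into 1 group gave 3870 shared genes. With a replicate block by number the calls were 6135, 6013 and 4796, and 8924 for line 2 against line 1. The labels do not say what a number stands for. Same-numbered libraries deviated together across genes (correlation 0.63 for KO2_RES and KO2, 0.31 for KO2_RES and control, 0.30 for KO2 and control, 0.083 for KO1 and control), which is a hint from the data and not the design. This block leaves only controls 1 and 2 to inform the contrast. Line 2 against line 1 fell to 2583 calls under the same minimum. For KO2_RES against KO2 the count was 2 with DESeq2, 41 without a filter, 6 with the replicate block, 0 with only the groups compared, 0 by the genotype field, and 8, among them HKDC1 and APOB, with line and number as a block, which was chosen after seeing the data. The causes of these shifts were not tested.

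Leaving out each library in turn gave 491 to 1526 shared genes, 530 to 2331 calls for KO2 against control, 780 to 2102 for KO2_RES against control, 3932 to 5729 for line 2 against line 1, and 0 to 1 for KO2_RES against KO2. The low counts came without KO2 number 1 (530) or number 2 (682) for KO2, and without KO2_RES number 2 (780) for KO2_RES. A group left with 1 library is assumed to vary like the others. Of the 1494 shared genes, 488 remained shared without KO2 number 1 and 589 without KO2 number 2. No result reversed. Of 102 named genes called for the line 2 mean, 100 kept their call under every alternative, the 2-fold minimum aside. GNMT lost its call with unstranded counts, controls 3 and 4 alone and without KO2 number 1, and IFI27 with controls 3 and 4 alone. Many named genes were chosen by calls against each control pair or by a small adjusted p. The call scored here is that of the line 2 mean, not the rule for shared genes. The share of named genes that kept their call is therefore in part set by the choice. Levels under 3 counts a library cannot be ranked at this depth.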

Other observations

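Further shared genes, chosen after their values were seen, are given as values. On the X chromosome the VCX family, expressed in male germ cells, was higher in line 2: VCX3A averaged 4.57 CPM in line 2 and 0.613 CPM in control (log2 fold change 2.88, SE 0.29) and VCX 3.35 CPM in line 2 and 0.466 CPM in control (2.84, SE 0.43). Copies of VCX are near-identical, so reads may be split between them. BEX5 on the same chromosome averaged 2.58 CPM in line 2 and 0.335 CPM in control (2.95, SE 0.63). On chromosome 18, apart from the desmosomal cadherins, the basic helix-loop-helix factor TCF4 averaged 1.07 CPM in line 2 and 4.27 CPM in control (-2.01, SE 0.29). The myosin light chain MYL12A averaged 196 CPM in line 2 and 362 CPM in control (-0.89, SE 0.10) and the kinase ALPK2 26.1 CPM in line 2 and 6.73 CPM in control (1.95, SE 0.34). The TCF4 gene named here is distinct from TCF7L2, the Wnt effector that shares the name as an alias.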
